A study of Mus musculus with 16 samples.

Results

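The 46 genes described here drive the cell cycle and copy DNA: cyclins and their kinases, E2F-family and FoxM1 transcription factors, replication licensing and helicase proteins, enzymes of deoxynucleotide supply, and the kinases, kinetochore and spindle proteins of mitosis. They were chosen by name and matched by gene symbol, 46 of the 57010 gene models in the count table, and all 46 were among the 14066 genes that passed the filter on low counts. RNA was sequenced from cardiomyocytes that had been isolated from C57BL/6 mouse hearts, in 16 libraries in 4 groups of 4. PRODH TAC mice received AAV9-PRODH, an adeno-associated virus carrying proline dehydrogenase, the enzyme of the first step of proline oxidation, and then TAC (transverse aortic constriction), a band on the aortic arch that makes the left ventricle pump against pressure. Vector TAC mice received AAV9-Vector, the virus without PRODH, and TAC, and carry the genotype label WT. PRODH sham mice received AAV9-PRODH and a sham operation, and vector sham mice received AAV9-Vector and a sham operation. Surgery was 3 weeks after the injection and cells were collected 4 weeks after surgery, so every group had been exposed to a virus and to an operation. The overexpression is described as specific to the heart. No source used here gives the promoter in the virus or the age and sex of the mice. Whether the 4 libraries of a group are 4 animals is not labelled, so a p-value measures their spread, which may be technical in part. The study set TAC against sham in vector mice, and PRODH against vector after TAC.

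Dividing cells pass a sequence of steps that these genes mark. Cyclin D with CDK4 or CDK6, and then cyclin E with CDK2, phosphorylate the retinoblastoma protein and free E2F factors, which switch on genes for DNA synthesis. Licensing proteins load the MCM helicase on origins, and FoxM1 with B-Myb later switches on the genes of mitosis, whose proteins condense chromosomes, attach them to the spindle and split the cell. Most adult mouse cardiomyocytes have left the cycle, and fibroblasts, endothelial cells and macrophages of the heart can divide. A heart cell may also replicate DNA or go through mitosis without splitting, which raises its ploidy or number of nuclei.

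The libraries held 15987580 to 22680212 counts each, and mitochondrial genes with their nuclear copies took 53.1% to 62.9% of them. A single count was worth 0.0393 to 0.0711 CPM (counts per library total, normalised for composition), so members under 1 CPM rest on few reads. Every member had at least 1 count in every library. Ccnd1, Ccnd2, Ccnd3, Ccne2, Ccna2, Cdk4, Gins2, Tyms, Kif20a and Prc1 had fractional counts in at least 12 libraries, so reads that fit similar sequences were divided and their values are less certain. Prodh, the mouse gene of that enzyme, averaged 13.6 ± 1.05 CPM in PRODH TAC and 7.28 ± 1.18 CPM in vector TAC, against 13.8 ± 0.955 CPM in PRODH sham and 11.0 ± 0.454 CPM in vector sham (SD, n = 4 each). The difference between PRODH and vector was 0.90 ± 0.10 after TAC (log2 ± SE, adjusted p = 2.19e-08) and 0.33 ± 0.10 after sham, where it was not called (adjusted p = 0.0517). Prodh fell after TAC under vector (-0.58 ± 0.11, adjusted p = 2.58e-05) and was not called after TAC under PRODH (-0.02 ± 0.10, adjusted p = 0.904). So the difference after TAC includes a fall in the vector group. Vector TAC libraries 3 and 4 stand apart in the mitochondrial gene mt-Nd4, with 20080 and 22058 CPM against at least 25952 CPM in the other 14 libraries, and calls that were lost without both are named beside the gene. Their whole mitochondrial share, 55.3% and 55.8%, lay near the 53.1% to 55.6% of the other TAC libraries. Leaving out both also shrinks the vector TAC group, so a call can end without a smaller effect. As to the labelled cell type, all 10 cardiomyocyte markers, Myh6 and Tnnt2 among them, were measured in every library, at a summed 34952 to 53706 CPM.

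TAC raised most of these genes under both viruses. Between PRODH TAC and PRODH sham 29 of the 46 members were higher and 1 was lower, against 17.2% of all tested genes higher and 17.8% lower. Between vector TAC and vector sham 32 members were higher and 3 were lower, against 30.3% higher and 26.2% lower of all tested genes. In 31 members every PRODH TAC library lay above every PRODH sham library, and in 2 below, against 17.3% and 17.4% of all tested genes. In 27 every vector TAC library lay above every vector sham library, and in 3 below, against 26.1% and 21.1%. The median log2 change of the members was 0.83 under PRODH and 0.79 under vector, against 0.02 for all tested genes in each. A gene counts as called, here and below, at an adjusted p under 0.05 in edgeR's quasi-likelihood test, adjusted over all 14066 genes. After TAC, PRODH differed from vector in 11 members, of which 9 were higher and 2 lower, against 18.5% of all tested genes higher and 24.6% lower. The share of members that was higher, 19.6%, is close to that of all genes, and the share that was lower, 4.35%, is under it. In this comparison the median log2 change of all tested genes was -0.04, and 43.0% of all called genes were higher. With the groups compared alone 49.6% of all called genes were higher. Scaled by library size alone, 43 members were higher and 0 lower under PRODH, and 40 higher and 1 lower under vector. Of all called genes 96.2% were then higher under PRODH and 86.2% under vector, against 49.2% and 53.6% with the normalisation used here. In RNA from many cells, fewer cells of a type and less RNA per cell cannot be told apart. The 2 TAC comparisons are separate in their libraries, whereas PRODH against vector after TAC shares the vector TAC libraries with the vector comparison.

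**Figure D1:**
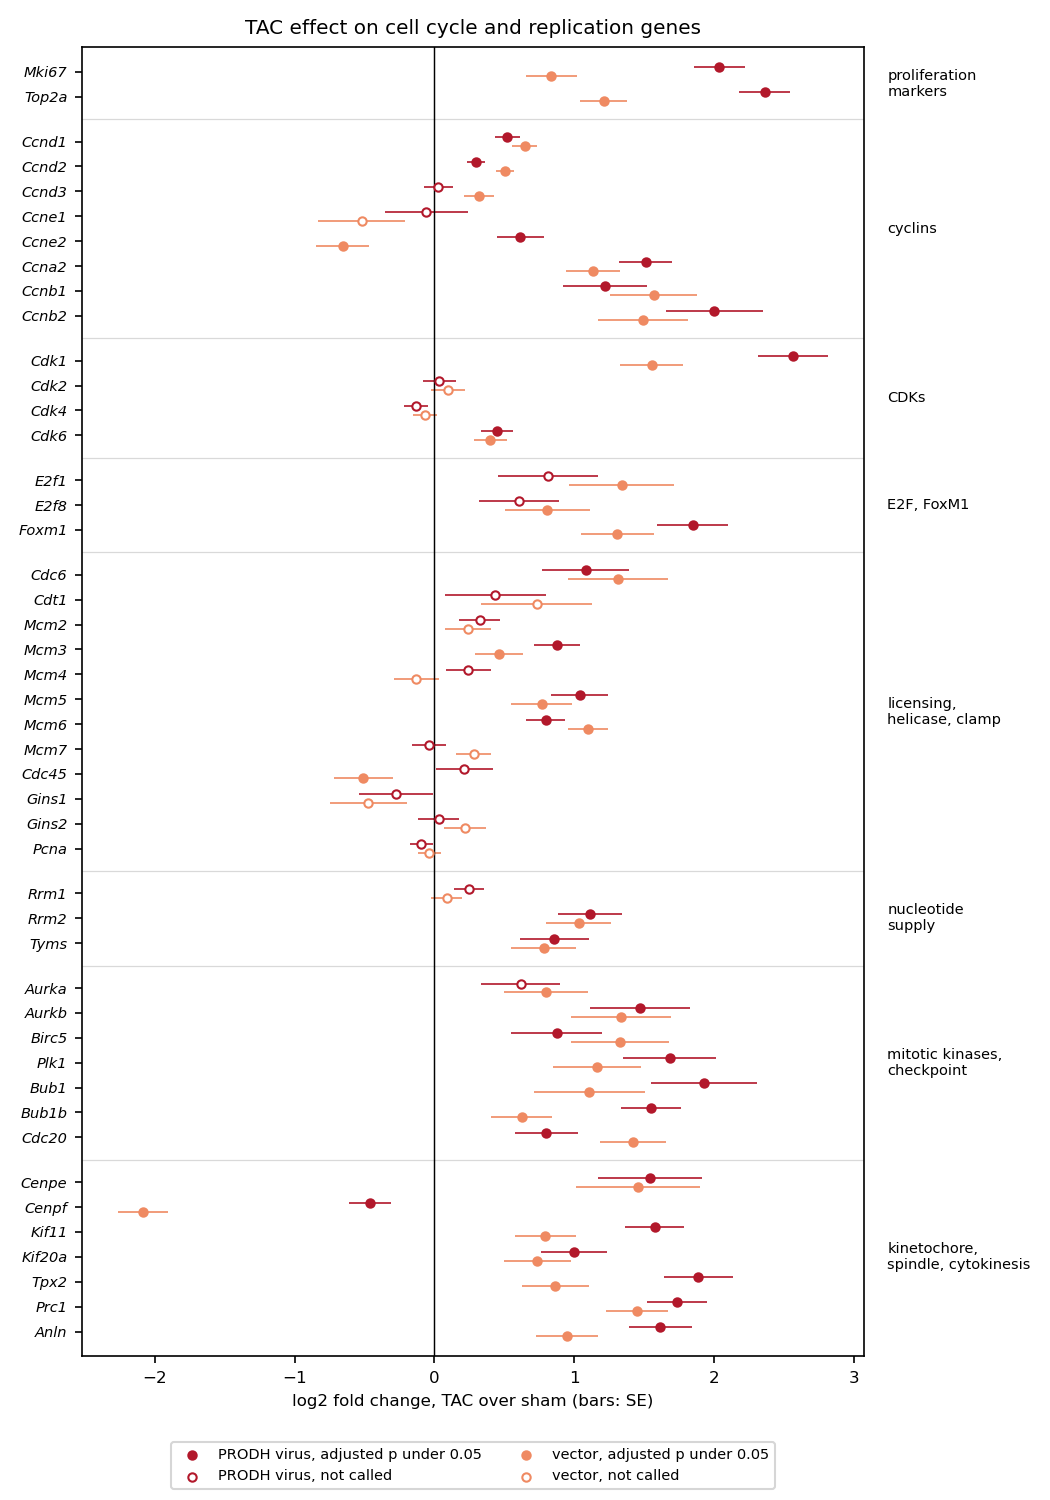
The log2 fold change of TAC over sham with its SE for each of the 46 members, in order of role, under PRODH and under vector; filled points have an adjusted p under 0.05. All members of the lower 2 groups other than Cenpf lie to the right of 0 under both viruses, and Cenpf lies at -0.46 under PRODH and -2.09 under vector.

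The TAC effect itself, with each virus set against its own sham group, depended on the virus in 7 members. In Cdk1, Top2a and Tpx2 the viruses differed more between the sham groups than between the TAC groups. The difference of the TAC effect under PRODH from that under vector (interaction) was called in Mki67, Top2a, Ccne2, Cdk1, Bub1b, Cenpf and Tpx2. The signed value was larger under PRODH in each of them (in Cenpf a smaller fall), and smaller under PRODH in no called member. Of all tested genes 10.9% had a called difference in the first direction and 15.8% in the other, against 15.2% and 0% of the members. The split of all genes depended on the libraries fitted. Of all called interactions 40.9% were in the first direction. The share was 48.6% to 50.7% with each sham library left out in turn, and 39.8% to 45.3% with each TAC library left out in turn. RefSeq promoter windows on the mouse build GRCm38.p6 reach 250 bases before and 50 bases after each gene's start, and 35 of the 46 members have one. Mki67, Top2a, Cdk1, Bub1b and Cenpf are the members with a called interaction that have a window, and 200 bases of each are printed below, from 170 before to 30 after the start, on the gene's own strand. Ccne2 and Tpx2 are named only. Capitals mark matches to 3 motifs, and a match on the other strand appears as its reverse complement. The first is CCAAT, which the factor NF-Y binds. The second is TTTGAA, the core of the cell cycle homology region (CHR). It is bound by MuvB complexes, which repress mitotic genes in resting cells and activate them in dividing cells. The third is an E2F site, searched as TTTCCCGC, TTTGGCGC, TTTCGCGC and TTTGCCGC.
Mki67 promoter, chr7:135716350-135716549, minus strand: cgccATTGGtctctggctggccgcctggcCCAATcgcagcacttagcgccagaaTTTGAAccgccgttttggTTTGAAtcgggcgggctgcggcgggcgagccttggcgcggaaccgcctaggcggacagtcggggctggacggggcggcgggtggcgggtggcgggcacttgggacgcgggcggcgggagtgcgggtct
Top2a promoter, chr11:99024160-99024359, minus strand: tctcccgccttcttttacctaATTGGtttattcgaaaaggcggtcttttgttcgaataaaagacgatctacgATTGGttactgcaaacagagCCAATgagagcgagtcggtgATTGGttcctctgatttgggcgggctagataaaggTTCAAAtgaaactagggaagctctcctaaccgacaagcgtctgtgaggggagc
Cdk1 promoter, chr10:69352883-69353082, minus strand: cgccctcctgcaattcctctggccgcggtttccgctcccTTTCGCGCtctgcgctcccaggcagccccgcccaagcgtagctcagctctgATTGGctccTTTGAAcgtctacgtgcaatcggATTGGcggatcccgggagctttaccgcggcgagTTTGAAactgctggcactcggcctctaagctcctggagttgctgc
Bub1b promoter, chr2:118598041-118598240, plus strand: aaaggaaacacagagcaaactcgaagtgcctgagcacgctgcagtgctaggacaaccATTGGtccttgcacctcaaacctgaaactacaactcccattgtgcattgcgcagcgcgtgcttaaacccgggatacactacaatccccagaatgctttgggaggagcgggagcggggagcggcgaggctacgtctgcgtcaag
Cenpf promoter, chr1:189688057-189688256, minus strand: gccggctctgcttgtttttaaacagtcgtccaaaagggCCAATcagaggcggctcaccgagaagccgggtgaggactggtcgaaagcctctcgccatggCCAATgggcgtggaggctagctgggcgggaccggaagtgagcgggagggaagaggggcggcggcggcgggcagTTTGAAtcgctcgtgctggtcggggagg
Each of the printed stretches but that of Bub1b holds a CHR, and the Bub1b window holds one at base 41 after the start, outside the printed stretch. Each printed stretch holds CCAAT, with 4 copies in Top2a and 2 in Cdk1, Cenpf and Mki67. The Cdk1 stretch alone holds an E2F site.

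Over all member windows the counts of motifs differed by role, which is a description without a test. The CHR was found in 12 of the 16 mitotic members that have a window (the proliferation markers, cyclins A and B, Cdk1 and the mitotic lists below) and in 3 of the 19 other members. CCAAT was found in 14 of those 16 and 12 of those 19, and both together in 11 and 3. An E2F site was found in 1 of the 16 and 7 of the 19, mainly in licensing genes, where 6 of 10 windows hold one. Of 32851 promoter windows of all genes, 17.9% hold a CHR, 37.4% CCAAT, 6.95% both and 2.26% an E2F site. Of 88 matches in member windows, 3 overlap a neighbouring match. A match describes letters and not binding. Cenpf holds a CHR and CCAAT as other mitotic members do, and its RNA fell after TAC under vector.

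The proliferation markers rose after TAC under both viruses and were higher with PRODH after TAC. Mki67, which encodes the Ki-67 antigen that coats mitotic chromosomes and is absent from resting cells, had 9.13, 7.85, 6.01 and 7.01 CPM in PRODH TAC and 5.23, 5.20, 3.77 and 3.41 in vector TAC. After sham it had 1.58, 2.74, 1.55 and 1.45 CPM under PRODH and 2.42, 2.84, 2.29 and 2.33 under vector. The PRODH TAC libraries were all above those of vector TAC, which were all above the sham libraries. It rose after TAC by 2.04 ± 0.18 under PRODH (log2 ± SE, adjusted p = 1.07e-09) and by 0.84 ± 0.18 under vector (adjusted p = 0.000318), and the interaction was 1.20 ± 0.27 (adjusted p = 0.00118). After TAC, PRODH exceeded vector by 0.76 ± 0.15 (adjusted p = 0.000216). Top2a, the topoisomerase that untangles sister DNA before chromosomes part, had 7.20, 7.85, 6.54 and 6.30 CPM in PRODH TAC and 5.27, 4.00, 5.19 and 6.18 in vector TAC. Sham values were 1.63, 1.81, 0.802 and 1.18 CPM with PRODH and 2.63, 2.38, 1.93 and 2.01 with vector. The order of the TAC groups was the same, with no overlap, and in the sham groups PRODH lay below vector, also with no overlap. Its TAC effect was 2.36 ± 0.18 under PRODH (adjusted p = 3.08e-11) and 1.21 ± 0.17 under vector (adjusted p = 5.49e-07), with an interaction of 1.15 ± 0.26 (adjusted p = 0.00126). PRODH exceeded vector after TAC by 0.43 ± 0.14 (adjusted p = 0.0138), a call that was lost when any one of vector TAC 2 and PRODH TAC 2 was left out (adjusted p from 0.0542 to 0.0596). After sham the difference was -0.72 ± 0.22 (adjusted p = 0.0501), at the threshold, and it was called when any one of PRODH sham 1 and 2 and vector TAC 2 and 4 was left out (adjusted p from 0.0284 to 0.0470).

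Of the 8 cyclins, the regulatory subunits that switch CDKs on, 6 rose after TAC under PRODH and none fell, and 6 rose and 1 fell under vector. The D-type cyclins, which relay growth signals to CDK4 and CDK6, were with Pcna and Cdk4 the 5 highest members for their length in each group. Per kilobase of gene length Ccnd3 averaged 11.4, Ccnd1 11.0 and Ccnd2 9.81 CPM in PRODH TAC, against 13.7, 13.2 and 9.16 in vector TAC, 11.2, 7.66 and 7.98 in PRODH sham and 10.9, 8.42 and 6.47 in vector sham.

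Ccnd2 had 61.1, 62.2, 62.4 and 62.7 CPM in PRODH TAC and 59.8, 59.5, 57.4 and 55.3 in vector TAC. In the sham groups it had 52.9, 51.8, 50.9 and 46.4 CPM with PRODH and 40.9, 39.3, 43.2 and 40.3 with vector. The groups did not overlap in any of the 4 comparisons. It rose after TAC by 0.30 ± 0.06 under PRODH (adjusted p = 0.000577) and by 0.50 ± 0.07 under vector (adjusted p = 1.19e-07). It was the one member called between PRODH sham and vector sham, at 0.30 ± 0.07 (adjusted p = 0.00318), where 2.81% of all tested genes were higher and 2.20% lower. The sham groups were separate in 3 members with PRODH above and in 2 with PRODH below, against 5.25% and 5.17% of all tested genes. Ccnd1 had 42.1, 44.3, 37.4 and 40.7 CPM in PRODH TAC and 48.1, 39.2, 55.1 and 54.5 in vector TAC. Its sham levels were 28.6, 27.7, 27.4 and 31.0 CPM under PRODH and 32.6, 30.3, 35.1 and 28.0 under vector. Both TAC groups lay above both sham groups, and the TAC groups overlapped each other. The TAC effect was 0.52 ± 0.09 under PRODH (adjusted p = 5.40e-05) and 0.65 ± 0.09 under vector (adjusted p = 5.26e-07). PRODH was lower than vector after TAC, at -0.26 ± 0.09 (adjusted p = 0.0183), and this call was lost when any one of vector sham 1, 2, 3 and 4, PRODH sham 1, 2 and 3, vector TAC 3 and 4 and PRODH TAC 3 and 4 was left out (adjusted p from 0.0519 to 0.0838) and without vector TAC libraries 3 and 4 together (adjusted p = 0.521). Sham libraries enter the fit but not this comparison. With each of those named left out in turn the value itself moved to -0.215, and with the groups compared alone to -0.213. Ccnd3 had 21.8, 21.3, 22.0 and 26.4 CPM in PRODH TAC and 25.2, 27.6, 30.5 and 26.3 in vector TAC. PRODH sham libraries had 20.6, 22.3, 22.5 and 24.3 CPM and vector sham libraries 15.7, 24.2, 24.8 and 22.6. Vector TAC lay just above vector sham, and the PRODH groups overlapped. Its TAC effect was 0.03 ± 0.10 under PRODH (adjusted p = 0.864) and 0.32 ± 0.10 under vector (adjusted p = 0.0109), the second a call lost without vector sham 1 (adjusted p = 0.0854) and without vector TAC libraries 3 and 4 together (adjusted p = 0.0954). After TAC it was -0.26 ± 0.10 with PRODH (adjusted p = 0.0411), and this call was lost when any one of vector sham 2, 3 and 4, PRODH sham 1, 2, 3 and 4, vector TAC 2, 3 and 4 and PRODH TAC 1, 2 and 3 was left out (adjusted p from 0.0527 to 0.139) and without vector TAC libraries 3 and 4 together (adjusted p = 0.231). Here too the value moved, to -0.216, with each of the named sham libraries left out in turn.

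Ccna2, the S-phase and G2 cyclin, had 4.22, 4.01, 3.66 and 3.35 CPM in PRODH TAC and 2.76, 3.17, 2.52 and 3.47 in vector TAC. It stood at 1.23, 1.25, 1.83 and 0.985 CPM in PRODH sham and 1.85, 1.12, 1.21 and 1.32 in vector sham. No TAC library overlapped a sham library, and the TAC groups overlapped narrowly. The TAC effect was 1.51 ± 0.19 under PRODH (adjusted p = 4.04e-07) and 1.13 ± 0.20 under vector (adjusted p = 1.31e-05). After TAC, PRODH against vector was 0.36 ± 0.16 (adjusted p = 0.0769), and this was called when any one of vector sham 1, 2 and 3, PRODH sham 1, 3 and 4 and PRODH TAC 4 was left out (adjusted p from 0.0377 to 0.0488). With each of those sham libraries left out in turn the value was 0.40. Ccnb1 and Ccnb2, the cyclins of mitotic entry, rose by 1.22 ± 0.30 and 2.00 ± 0.35 under PRODH, and by 1.57 ± 0.31 and 1.49 ± 0.32 under vector. Neither was called between PRODH and vector after TAC. Ccne1, a cyclin of S-phase entry, averaged 0.814 ± 0.319 CPM in PRODH TAC and 0.638 ± 0.0990 in vector TAC, against 0.848 ± 0.0967 in PRODH sham and 0.904 ± 0.248 in vector sham, and was not called in any comparison.

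Ccne2, the second E-type cyclin, moved in opposite directions after TAC under the 2 viruses, and is singled out after its values were seen. Its libraries had 2.78, 3.35, 2.92 and 3.23 CPM in PRODH TAC and 0.978, 1.30, 1.57 and 1.30 in vector TAC. The sham libraries had 1.98, 1.87, 2.18 and 1.97 CPM with PRODH and 1.64, 2.03, 2.29 and 2.06 with vector. PRODH TAC lay above every other library, vector TAC below every other library, and the sham groups overlapped. It rose by 0.61 ± 0.17 after TAC under PRODH (adjusted p = 0.00478) and fell by 0.66 ± 0.19 under vector (adjusted p = 0.00409). The interaction was 1.27 ± 0.25 (adjusted p = 0.000345), and PRODH exceeded vector after TAC by 1.26 ± 0.17 (adjusted p = 8.18e-07). Scaled by library size alone, its fall under vector was -0.30 and no longer called (adjusted p = 0.182).

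Among the 4 CDKs, Cdk1 and Cdk6 rose after TAC under both viruses, and Cdk2 and Cdk4 were not called in any comparison. Cdk1, the kinase that drives mitotic entry, had 2.69, 2.89, 3.21 and 3.19 CPM in PRODH TAC and 2.51, 2.60, 3.41 and 2.87 in vector TAC. After sham it had 0.584, 0.311, 0.458 and 0.657 CPM under PRODH and 0.427, 1.01, 1.39 and 0.952 under vector. All TAC libraries lay above all sham libraries, and within each surgery the viruses overlapped. Its TAC effect was 2.56 ± 0.25 under PRODH (adjusted p = 5.00e-09) and 1.55 ± 0.23 under vector (adjusted p = 8.83e-07). The interaction, 1.01 ± 0.36 (adjusted p = 0.0359), was lost when any one of vector sham 3, PRODH sham 2 and 3, vector TAC 1 and PRODH TAC 3 was left out (adjusted p from 0.0596 to 0.0941). PRODH against vector after sham was -0.93 ± 0.31 (adjusted p = 0.0800) and was called without vector sham 1 (adjusted p = 0.0156). Cdk6, a partner of the D-type cyclins, had 6.92, 8.26, 7.88 and 7.01 CPM in PRODH TAC and 7.49, 6.65, 6.66 and 7.70 in vector TAC. Sham values were 4.96, 5.23, 6.36 and 5.45 CPM with PRODH and 5.55, 4.62, 6.16 and 5.40 with vector. TAC and sham did not overlap under either virus, and the effect was 0.45 ± 0.11 under PRODH (adjusted p = 0.00290) and 0.40 ± 0.12 under vector (adjusted p = 0.00468). Cdk2, the partner of cyclins E and A, had 6.48, 5.82, 6.38 and 4.76 CPM in PRODH TAC and 6.08, 5.04, 5.35 and 5.58 in vector TAC. In the sham groups it had 5.84, 6.17, 5.90 and 4.93 CPM with PRODH and 4.55, 5.63, 5.43 and 4.97 with vector. All 4 groups overlapped, with TAC effects of 0.03 ± 0.12 under PRODH and 0.10 ± 0.12 under vector. Cdk4, the other cyclin D partner, averaged 19.7 ± 1.89 CPM in PRODH TAC and 19.7 ± 1.54 in vector TAC, against 21.6 ± 0.968 in PRODH sham and 20.6 ± 2.08 in vector sham, and its TAC effects were -0.13 ± 0.09 and -0.07 ± 0.09 under PRODH and vector. These TAC effects of Cdk4 turned positive when libraries were scaled by size alone (0.25 under PRODH and 0.29 under vector).

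Of the 3 transcription factors 1 rose after TAC under PRODH and 3 under vector. Foxm1, the activator of mitotic genes, had 1.69, 1.86, 2.40 and 2.20 CPM in PRODH TAC and 1.11, 1.56, 1.94 and 1.79 in vector TAC. Its sham levels were 0.584, 0.498, 0.458 and 0.723 CPM under PRODH and 0.712, 0.457, 0.604 and 0.794 under vector. TAC lay above sham with no overlap under both viruses, and the effect was 1.84 ± 0.26 under PRODH (adjusted p = 2.16e-06) and 1.31 ± 0.26 under vector (adjusted p = 9.25e-05). E2f1, an activator of S-phase genes, had 0.684, 1.49, 0.853 and 1.14 CPM in PRODH TAC and 0.936, 0.988, 1.31 and 1.36 in vector TAC. PRODH sham libraries had 0.409, 0.436, 0.974 and 0.525 CPM and vector sham libraries 0.356, 0.660, 0.664 and 0.106. The vector groups did not overlap and the PRODH groups did. Its effect under PRODH was 0.81 ± 0.36 and not called (adjusted p = 0.0793), but was called when any one of vector sham 4 and PRODH sham 3 was left out (adjusted p from 0.0244 to 0.0443). Under vector it was 1.34 ± 0.38 (adjusted p = 0.00342), a call lost without vector TAC libraries 3 and 4 together (adjusted p = 0.0529). E2f8, an atypical E2F that represses E2F targets, had 0.804, 0.991, 1.18 and 0.905 CPM in PRODH TAC and 0.723, 0.884, 1.05 and 1.03 in vector TAC. It stood at 0.876, 0.623, 0.630 and 0.394 CPM in PRODH sham and 0.498, 0.355, 0.543 and 0.688 in vector sham. Again the vector groups were separate and the PRODH groups overlapped. Its value under PRODH was 0.60 ± 0.29 (adjusted p = 0.104), which was called without PRODH sham 1 (adjusted p = 0.0440). Its rise under vector, 0.81 ± 0.31 (adjusted p = 0.0256), was lost when any one of vector sham 1 and 2 and vector TAC 3 and 4 was left out (adjusted p from 0.0523 to 0.105) and without vector TAC libraries 3 and 4 together (adjusted p = 0.200). The interaction was not called in any of the 3, so their TAC effects are not shown to differ between the viruses.

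**Figure D2:**
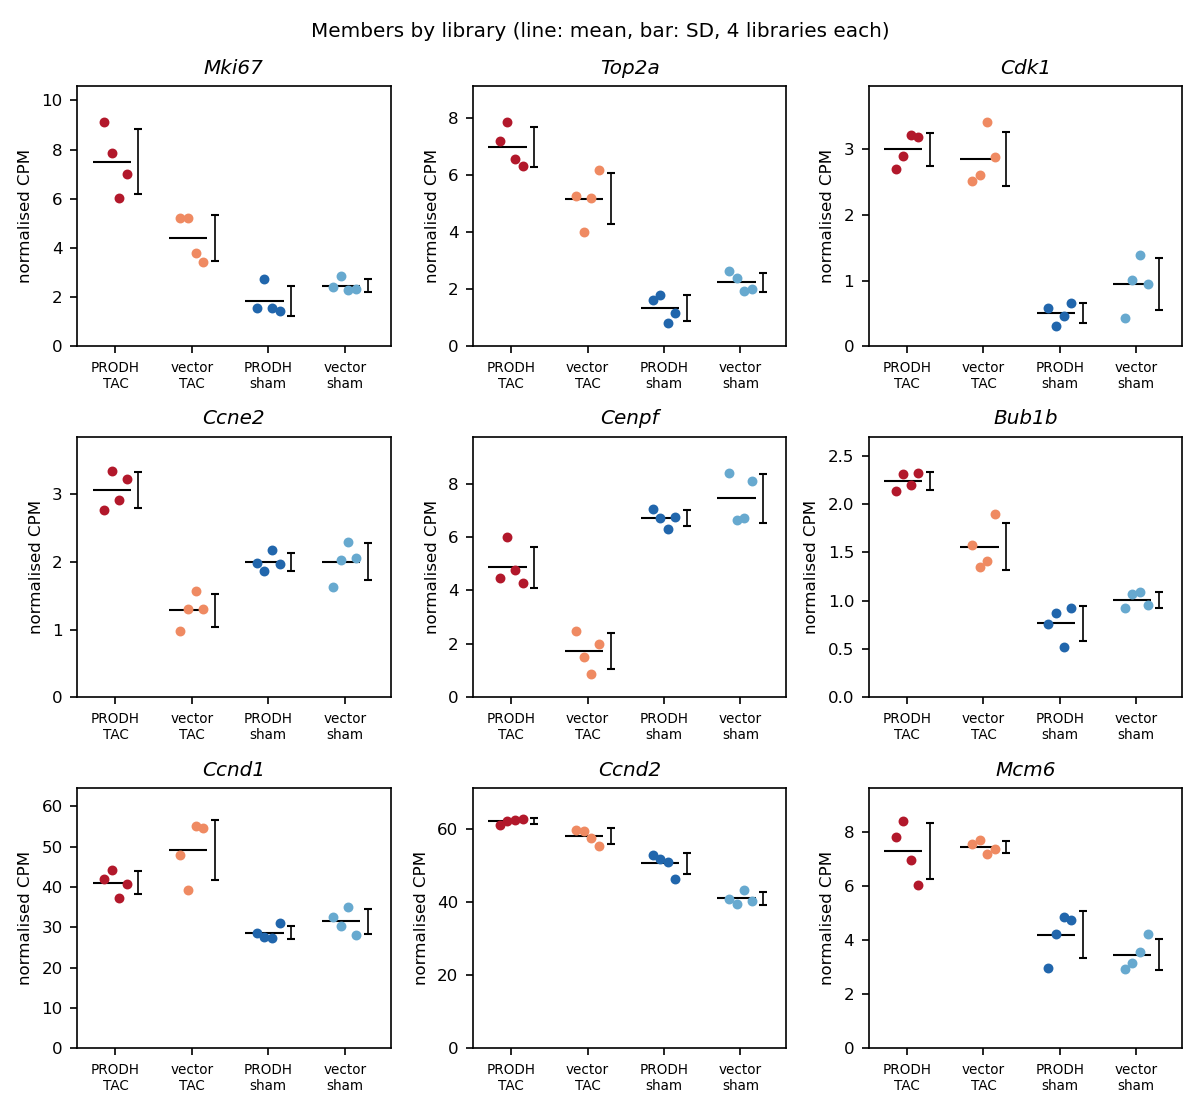
Normalised CPM of 9 members in each of the 16 libraries, with the group mean as a line and the SD as a bar. In Mki67, Top2a and Bub1b the PRODH TAC libraries lie above the vector TAC libraries; Ccne2 and Cenpf are lowest in vector TAC, and the Cdk1 TAC groups overlap.

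Of the 12 licensing, helicase and clamp genes, 4 rose after TAC under each virus, none fell under PRODH and 1 fell under vector, and their summed level was 56.9 ± 2.04 CPM in PRODH TAC and 52.3 ± 2.90 in vector TAC, against 48.5 ± 1.16 in PRODH sham and 44.8 ± 1.05 in vector sham (± SD, n = 4). Cdc6, Mcm3, Mcm5 and Mcm6 were called higher under both viruses. Mcm6, a subunit of the ring-shaped helicase that opens DNA, had 7.80, 8.39, 6.95 and 6.02 CPM in PRODH TAC and 7.57, 7.69, 7.18 and 7.37 in vector TAC. The sham libraries had 2.98, 4.24, 4.87 and 4.73 CPM with PRODH and 2.92, 3.15, 3.56 and 4.23 with vector. TAC and sham were separate under both viruses, and the TAC effect was 0.80 ± 0.14 under PRODH (adjusted p = 4.84e-05) and 1.10 ± 0.14 under vector (adjusted p = 1.50e-07). Cdc6, which loads that helicase on origins, had 1.37, 0.909, 0.812 and 1.06 CPM in PRODH TAC and 0.681, 0.780, 0.944 and 0.650 in vector TAC. After sham it had 0.350, 0.498, 0.458 and 0.657 CPM under PRODH and 0.142, 0.254, 0.483 and 0.317 under vector. TAC and sham were again separate, with effects of 1.08 ± 0.31 (adjusted p = 0.00746) under PRODH and 1.31 ± 0.36 (adjusted p = 0.00256) under vector.

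Mcm5, another helicase subunit, had 4.06, 4.26, 4.27 and 4.13 CPM in PRODH TAC and 2.64, 1.72, 3.30 and 4.61 in vector TAC. Sham values were 2.51, 2.12, 1.89 and 1.58 CPM with PRODH and 1.42, 1.78, 2.23 and 1.69 with vector. PRODH TAC was tightly grouped and lay above PRODH sham, while vector TAC was spread widely and overlapped vector sham. It rose by 1.04 ± 0.20 under PRODH (adjusted p = 0.000212) and by 0.77 ± 0.22 under vector (adjusted p = 0.00369), where the call was lost without vector TAC libraries 3 and 4 together (adjusted p = 0.292). PRODH exceeded vector after TAC by 0.46 ± 0.19 (adjusted p = 0.0486), a call lost when any one of vector TAC 1, 2 and 3 and PRODH TAC 1, 2, 3 and 4 was left out (adjusted p from 0.0581 to 0.215). Mcm2, also in the ring, was higher with PRODH after TAC by 0.51 ± 0.15 (adjusted p = 0.00599), at 4.87 ± 0.443 CPM in PRODH TAC and 3.45 ± 0.866 in vector TAC, against 3.89 ± 0.538 in PRODH sham and 2.90 ± 0.205 in vector sham, and its TAC effects were not called; that under PRODH, 0.32 ± 0.15, was called without PRODH sham 1 (adjusted p = 0.0416). Mcm3, of the same ring, rose by 0.87 ± 0.17 under PRODH and by 0.46 ± 0.17 under vector, where the call was lost when any one of vector sham 2 and 3 and vector TAC 4 was left out (adjusted p from 0.0551 to 0.110) and without vector TAC libraries 3 and 4 together (adjusted p = 0.235). Mcm4 and Mcm7 of the helicase ring, Gins1 and Gins2 of its cofactor, the loader Cdt1 and Pcna, the sliding clamp of DNA polymerases, were not called in any comparison. After TAC under vector, Mcm7 (0.28 ± 0.12) was called without vector TAC 2 (adjusted p = 0.0384) and Cdt1 (0.73 ± 0.39) without vector sham 2 (adjusted p = 0.0171). Pcna averaged 12.7 CPM per kilobase in PRODH TAC and 11.9 in vector TAC, against 13.5 in PRODH sham and 12.3 in vector sham. It was the highest member for its length in PRODH TAC and both sham groups, and in vector TAC Ccnd3 and Ccnd1 were higher. The values of its TAC effect, -0.09 ± 0.08 under PRODH and -0.04 ± 0.08 under vector, turned positive on scaling by library size alone (0.28 and 0.32).

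Cdc45, the partner that completes the active helicase, fell under vector and is named after its values were seen. It had 1.49, 1.49, 1.58 and 1.57 CPM in PRODH TAC and 1.19, 1.30, 1.05 and 0.867 in vector TAC. In the sham groups it had 1.46, 1.43, 1.09 and 1.31 CPM with PRODH and 1.64, 1.42, 1.51 and 1.75 with vector. Vector TAC lay below vector sham and below PRODH TAC, and the PRODH TAC libraries lay just above those of PRODH sham. The fall under vector was -0.51 ± 0.21 (adjusted p = 0.0394), and was lost when any one of vector sham 1 and 4 and vector TAC 3 and 4 was left out (adjusted p from 0.0597 to 0.122) and without vector TAC libraries 3 and 4 together (adjusted p = 0.280). With scaling by library size alone it was -0.15 and not called (adjusted p = 0.571). It was also not called by DESeq2 (adjusted p = 0.0864), with the groups compared alone (adjusted p = 0.0670) or without the low-count filter (adjusted p = 0.140). PRODH against vector after TAC was 0.47 ± 0.20 (adjusted p = 0.0593), and this was called when any one of vector sham 1, 2, 3 and 4, PRODH sham 1, 2, 3 and 4 and vector TAC 2 was left out (adjusted p from 0.0391 to 0.0431). With each sham library left out in turn the value was 0.51.

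Of the 3 genes of deoxynucleotide supply, Rrm2 and Tyms rose under both viruses and Rrm1 was not called. Rrm2, the S-phase subunit of ribonucleotide reductase, had 2.37, 2.35, 2.52 and 2.36 CPM in PRODH TAC and 2.64, 2.65, 1.89 and 1.90 in vector TAC. Its sham levels were 0.876, 1.06, 1.38 and 1.12 CPM under PRODH and 0.712, 1.47, 0.664 and 1.48 under vector. Every TAC library lay above every sham library, and the effect was 1.11 ± 0.23 under PRODH (adjusted p = 0.000344) and 1.03 ± 0.23 under vector (adjusted p = 0.000369). Tyms, thymidylate synthase, had 2.09, 2.27, 1.50 and 1.65 CPM in PRODH TAC and 2.47, 2.29, 2.15 and 2.66 in vector TAC. PRODH sham libraries had 0.467, 1.37, 1.26 and 1.05 CPM and vector sham libraries 0.854, 1.52, 1.45 and 1.64. TAC lay above sham under each virus, with effects of 0.86 ± 0.25 (adjusted p = 0.00769) under PRODH and 0.78 ± 0.23 (adjusted p = 0.00523) under vector. Rrm1, the large reductase subunit, had 9.45, 8.26, 8.41 and 10.9 CPM in PRODH TAC and 8.64, 8.11, 8.60 and 10.2 in vector TAC. It stood at 7.76, 8.10, 8.31 and 7.03 CPM in PRODH sham and 7.90, 7.76, 8.57 and 9.21 in vector sham. The groups overlapped in both TAC comparisons, at 0.25 ± 0.11 (adjusted p = 0.0764) under PRODH and 0.09 ± 0.11 (adjusted p = 0.522) under vector. The first of these was called when any one of vector sham 1, 2, 3 and 4 and PRODH sham 3 was left out (adjusted p from 0.0404 to 0.0484). With each vector sham library left out in turn its value was 0.28.

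Of 7 mitotic kinases and checkpoint genes 6 rose after TAC under PRODH, Aurka being the other at 0.62 ± 0.28 (adjusted p = 0.0906), and all 7 rose under vector. Their summed level was 9.05 ± 0.276 CPM in PRODH TAC and 8.36 ± 0.436 in vector TAC, against 3.95 ± 0.624 in PRODH sham and 3.89 ± 0.535 in vector sham (± SD, n = 4). Cdc20, the activator of the anaphase-promoting complex, had 2.33, 1.45, 2.11 and 2.05 CPM in PRODH TAC and 2.59, 1.87, 2.73 and 1.95 in vector TAC. The sham libraries had 1.46, 0.748, 1.09 and 1.25 CPM with PRODH and 0.925, 0.710, 0.966 and 0.846 with vector. Vector TAC and vector sham were separate, and the lowest PRODH TAC library met the highest PRODH sham library. The TAC effect was 0.80 ± 0.23 under PRODH (adjusted p = 0.00624) and 1.42 ± 0.24 under vector (adjusted p = 7.29e-06). Birc5, survivin of the chromosomal passenger complex, had 0.845, 0.868, 0.772 and 0.866 CPM in PRODH TAC and 1.02, 0.624, 1.05 and 0.650 in vector TAC. After sham it had 0.525, 0.498, 0.516 and 0.263 CPM under PRODH and 0.213, 0.355, 0.543 and 0.212 under vector. TAC and sham were separate under both viruses. Its effect under PRODH, 0.87 ± 0.33 (adjusted p = 0.0370), was lost when any one of PRODH sham 2 and 4 and PRODH TAC 1, 2, 3 and 4 was left out (adjusted p from 0.0504 to 0.114), and under vector it was 1.33 ± 0.35 (adjusted p = 0.00188). Aurkb, the kinase of that complex, had 0.965, 1.07, 0.731 and 1.14 CPM in PRODH TAC and 0.510, 1.30, 1.10 and 1.08 in vector TAC. Sham values were 0.467, 0.311, 0.229 and 0.394 CPM with PRODH and 0.213, 0.355, 0.302 and 0.635 with vector. PRODH TAC lay above PRODH sham, and 1 vector TAC library lay among vector sham. Its effect was 1.47 ± 0.36 under PRODH (adjusted p = 0.00201) and 1.33 ± 0.36 under vector (adjusted p = 0.00213).

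Plk1, a kinase of mitotic entry and spindle assembly, and Bub1, a checkpoint kinase, rose by 1.68 ± 0.33 and 1.93 ± 0.38 under PRODH, and by 1.16 ± 0.31 and 1.11 ± 0.40 under vector. The vector call of Bub1 was lost when any one of vector sham 1 and 2 and vector TAC 4 was left out (adjusted p from 0.0534 to 0.0972) and without vector TAC libraries 3 and 4 together (adjusted p = 0.0856), and that of Aurka, 0.80 ± 0.30, was lost when any one of vector sham 1 and 3 and vector TAC 1 and 2 was left out (adjusted p from 0.0561 to 0.0923). Bub1b, which encodes the checkpoint protein BubR1, is singled out for its called interaction and had 2.13, 2.31, 2.19 and 2.32 CPM in PRODH TAC and 1.57, 1.35, 1.42 and 1.90 in vector TAC. In the sham groups it had 0.759, 0.872, 0.516 and 0.920 CPM with PRODH and 0.925, 1.07, 1.09 and 0.952 with vector. PRODH TAC lay above vector TAC, both lay above the sham libraries, and PRODH sham lay below vector sham by a narrow margin. It rose by 1.55 ± 0.22 under PRODH (adjusted p = 2.26e-06) and by 0.62 ± 0.22 under vector (adjusted p = 0.0156), the second of which was lost without vector TAC 4 (adjusted p = 0.0627) and without vector TAC libraries 3 and 4 together (adjusted p = 0.0991). The interaction of 0.93 ± 0.31 (adjusted p = 0.0265) was lost without PRODH sham 3 (adjusted p = 0.0572), and PRODH against vector after TAC, 0.52 ± 0.19 (adjusted p = 0.0248), was lost when any one of vector TAC 2 and 3 and PRODH TAC 2 was left out (adjusted p from 0.0532 to 0.0653) and without vector TAC libraries 3 and 4 together (adjusted p = 0.0548).

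Of 7 kinetochore, spindle and cytokinesis genes, 6 rose after TAC under each virus. Cenpf fell under each, but under PRODH its value was -0.08 and not called when libraries were scaled by size alone (adjusted p = 0.684). Prc1, which bundles the microtubules of the central spindle, had 3.78, 4.54, 4.59 and 4.09 CPM in PRODH TAC and 2.98, 3.74, 3.25 and 3.58 in vector TAC. Its sham levels were 1.98, 1.18, 0.860 and 1.05 CPM under PRODH and 0.569, 1.12, 1.45 and 1.69 under vector. All TAC libraries lay above all sham libraries, and PRODH TAC lay just above vector TAC. Its TAC effect was 1.73 ± 0.21 under PRODH (adjusted p = 3.10e-07) and 1.45 ± 0.22 under vector (adjusted p = 2.12e-06), and PRODH against vector after TAC was 0.33 ± 0.18 and not called (adjusted p = 0.134). Anln, anillin of the contractile ring, had 3.14, 3.47, 2.48 and 2.68 CPM in PRODH TAC and 2.98, 2.34, 2.78 and 1.68 in vector TAC. PRODH sham libraries had 0.700, 0.748, 1.38 and 0.985 CPM and vector sham libraries 1.35, 1.47, 1.33 and 0.952. TAC and sham did not overlap under either virus, and the effect was 1.61 ± 0.23 (adjusted p = 2.40e-06) under PRODH and 0.95 ± 0.22 (adjusted p = 0.000583) under vector. Its interaction, 0.67 ± 0.32 (adjusted p = 0.129), was called without PRODH sham 3 (adjusted p = 0.0422). Kif11, the motor that separates spindle poles, was higher with PRODH after TAC by 0.61 ± 0.18 (adjusted p = 0.00769), at 2.72 ± 0.240 CPM in PRODH TAC and 1.77 ± 0.173 in vector TAC, against 0.909 ± 0.249 in PRODH sham and 1.02 ± 0.231 in vector sham. That call was lost without vector TAC libraries 3 and 4 together (adjusted p = 0.0658), and the interaction, 0.78 ± 0.31 (adjusted p = 0.0598), was called when any one of vector sham 1 and 2 and PRODH sham 2 was left out (adjusted p from 0.0204 to 0.0354).

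Cenpe, a kinetochore motor, was higher with PRODH after TAC by 0.86 ± 0.33 (adjusted p = 0.0350), a call lost when any one of vector TAC 3 and 4 and PRODH TAC 2 and 3 was left out (adjusted p from 0.0901 to 0.144) and without vector TAC libraries 3 and 4 together (adjusted p = 0.406). Tpx2, an activator of Aurora A at the spindle, is named for its interaction and had 3.50, 2.73, 3.01 and 2.52 CPM in PRODH TAC and 1.83, 2.03, 2.20 and 2.76 in vector TAC. It stood at 1.23, 0.436, 0.573 and 0.920 CPM in PRODH sham and 1.07, 0.812, 1.57 and 1.38 in vector sham. TAC and sham did not overlap, and within each surgery the viruses did. It rose by 1.89 ± 0.25 under PRODH (adjusted p = 8.35e-07) and by 0.86 ± 0.24 under vector (adjusted p = 0.00289), the second of which was lost without vector TAC libraries 3 and 4 together (adjusted p = 0.0539). The interaction of 1.02 ± 0.35 (adjusted p = 0.0308) was lost when any one of vector sham 3 and 4, PRODH sham 2 and 3, vector TAC 1 and PRODH TAC 1 was left out (adjusted p from 0.0582 to 0.0699). Kif20a, a kinesin of cytokinesis, rose by 1.00 ± 0.24 under PRODH and by 0.74 ± 0.24 under vector, where the call was lost without vector sham 3 (adjusted p = 0.0529) and without vector TAC libraries 3 and 4 together (adjusted p = 0.156).

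Cenpf, a large protein of the kinetochore and nuclear matrix that peaks in G2 and mitosis, stood apart from the other mitotic members. It had 4.46, 5.99, 4.75 and 4.29 CPM in PRODH TAC and 2.47, 1.51, 0.891 and 2.01 in vector TAC. The sham libraries had 7.06, 6.73, 6.30 and 6.77 CPM with PRODH and 8.40, 6.65, 6.70 and 8.09 with vector. Vector TAC lay below every other library, PRODH TAC lay between vector TAC and the sham groups with no overlap, and the sham groups overlapped. It fell by 0.46 ± 0.15 under PRODH (adjusted p = 0.0182) and by 2.09 ± 0.18 under vector (adjusted p = 4.33e-11), the first of which was lost when any one of PRODH sham 1, 2 and 4 and PRODH TAC 1 and 4 was left out (adjusted p from 0.0565 to 0.0696) as well as by the scaling named above. Under vector that scaling gave -1.73 (adjusted p = 5.78e-09). PRODH exceeded vector after TAC by 1.48 ± 0.18 (adjusted p = 1.23e-07), and the interaction was 1.62 ± 0.24 (adjusted p = 6.15e-06).

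Between PRODH and vector after TAC no CDK, E2F-family or FoxM1 factor or gene of nucleotide supply was called. The members called higher were Mki67, Top2a, Ccne2, Mcm2, Mcm5, Bub1b, Cenpe, Cenpf and Kif11, and those called lower were Ccnd1 and Ccnd3. The higher calls comprise 2 of 2 proliferation markers, 3 of 7 kinetochore, spindle and cytokinesis genes, 2 of 12 licensing genes, 1 of 7 mitotic kinases and checkpoint genes and 1 of 8 cyclins. Of all tested genes 18.5% were higher. The shares in licensing genes (16.7%), mitotic kinases and checkpoint genes (14.3%) and cyclins (12.5%) lay under that. In 10 members each PRODH TAC library exceeded each vector TAC library and in none did all fall short, against 16.7% and 22.6% of all tested genes. Summed over the 20 mitotic members (Mki67, Top2a, Ccna2, Ccnb1, Ccnb2, Cdk1 and the 14 of the mitotic lists), the level was 56.4, 58.0, 51.4 and 51.5 CPM in PRODH TAC libraries and 41.8, 40.1, 40.0 and 41.7 in vector TAC libraries. It was 24.0, 22.0, 20.5 and 21.5 CPM in PRODH sham and 25.6, 24.5, 25.1 and 26.8 in vector sham. No group overlapped another, and PRODH sham was the lowest. Without Cenpf the sums were 49.4 ± 2.90 CPM in PRODH TAC and 39.2 ± 0.460 in vector TAC, against 15.3 ± 1.17 in PRODH sham and 18.0 ± 0.656 in vector sham (± SD, n = 4). These sums describe the members and carry no test.

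Some calls ended under other settings than leaving out a library. DESeq2 did not call the rises under vector of Bub1, Aurka, Bub1b, Mcm3 and E2f8 (adjusted p from 0.0570 to 0.0744). Without the low-count filter those of Bub1, Aurka, Bub1b and E2f8 were not called (adjusted p from 0.0620 to 0.0727). The rise of Birc5 under PRODH was lost by both (adjusted p = 0.0854 and 0.0887), as was the interaction of Bub1b (adjusted p = 0.0549 and 0.0828). For PRODH against vector after TAC, DESeq2 did not call Mcm5, Bub1b, Cenpe, Ccnd1 and Ccnd3 (adjusted p from 0.0505 to 0.104), and Bub1b was not called without the filter (adjusted p = 0.0744). Scaling by library size alone ended the calls of Ccnd1 and Ccnd3 (adjusted p = 0.0663 and 0.0886), the fit without mitochondrial genes that of Ccnd3 (adjusted p = 0.0680), and the fit of the groups compared alone those of Ccnd1 and Mcm5 (adjusted p = 0.0704 and 0.05004).

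Other calls were added. Scaled by library size alone, Mcm2, Cdt1, Cdk4, Cdk2, Pcna, Mcm7, Rrm1 and Gins2 were called higher after TAC under both viruses (log2 changes of 0.25 to 1.08), and Cdc45, Mcm4, E2f1, Aurka, Ccnd3 and E2f8 also under PRODH (0.41 to 1.19). With the groups compared alone, Tpx2, Ccna2 and Prc1 were called higher with PRODH after TAC (adjusted p from 0.0247 to 0.0301), and Mcm2 and E2f1 after TAC under PRODH (adjusted p = 0.0430 and 0.0486). Without mitochondrial genes Cdc45 was called higher with PRODH after TAC (adjusted p = 0.0432), and the interaction of Kif11 was called (adjusted p = 0.0496). Without the low-count filter Top2a was called lower with PRODH after sham (adjusted p = 0.0254), and DESeq2 called the interaction of Ccnd2 lower (adjusted p = 0.0457).

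**Figure D3:**
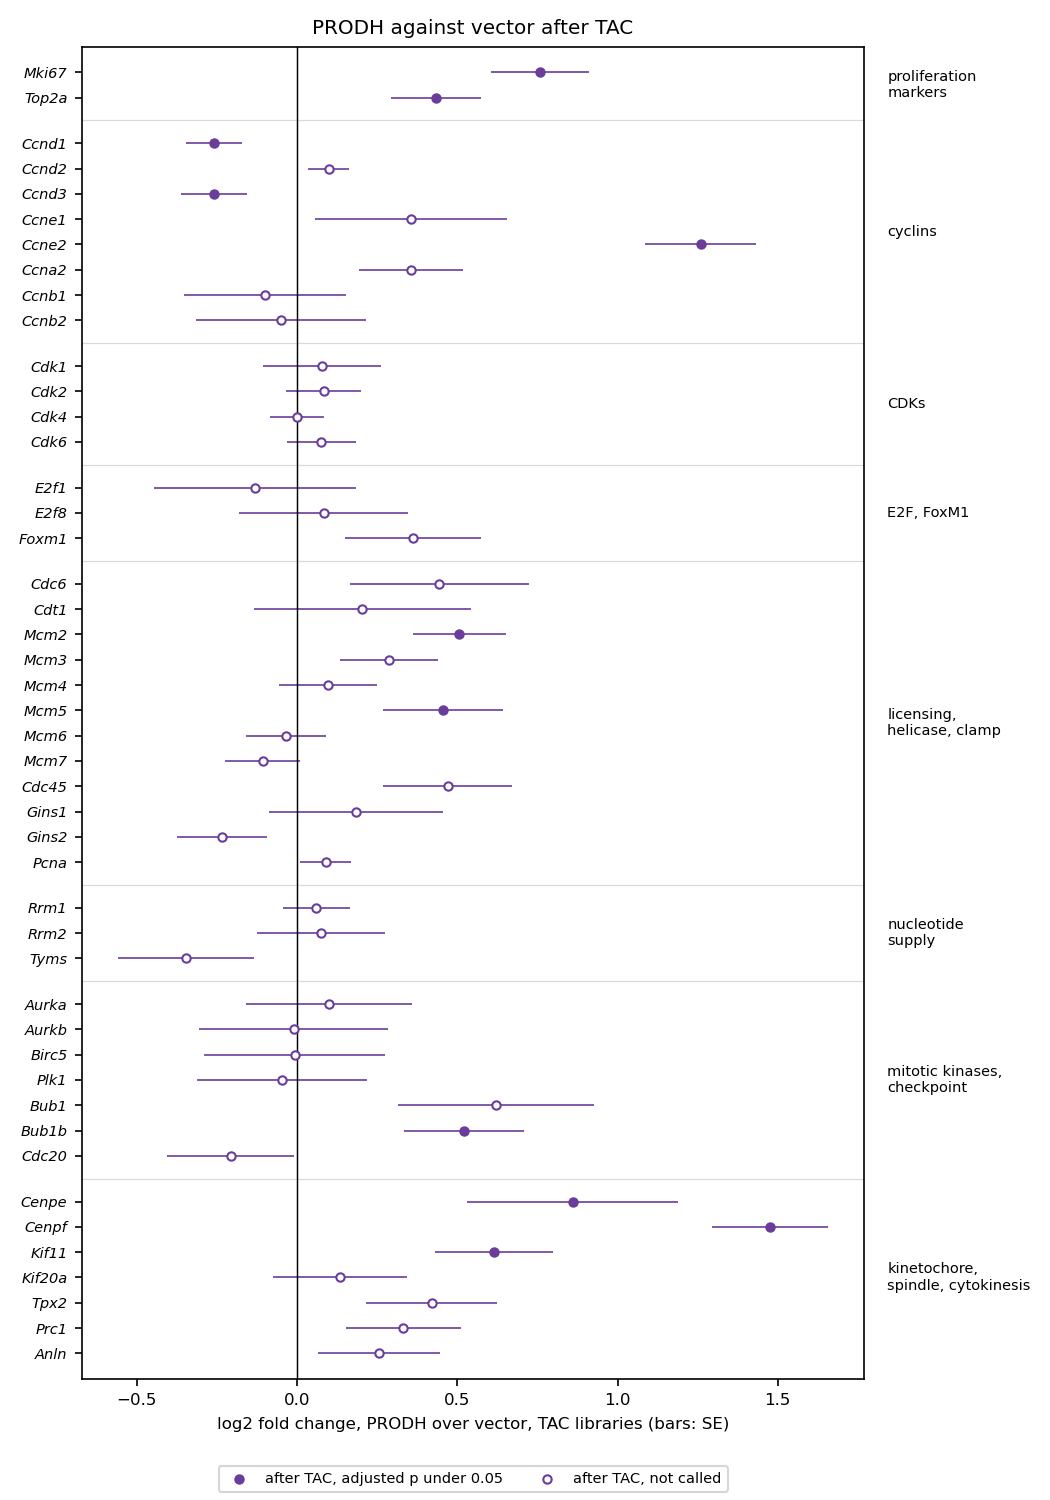
The log2 fold change of PRODH over vector in TAC libraries, with its SE, for each of the 46 members by role; filled points have an adjusted p under 0.05. The 9 filled points to the right of 0 include Cenpf at 1.48 and Ccne2 at 1.26, and the 2 to the left are Ccnd1 and Ccnd3 at -0.26 each.

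Markers of fibroblasts, endothelial cells and myeloid cells rose after TAC under vector, and most of them were lower in PRODH TAC than in vector TAC, where the mitotic sum was higher in PRODH TAC. All 12 fibroblast markers were lower in PRODH TAC than in vector TAC. Of the 12, 10 rose after TAC under PRODH and 12 under vector. Their summed level ran 637 to 811 CPM in PRODH TAC and 2174 to 2418 in vector TAC, against 441 to 470.2 in PRODH sham and 313 to 481 in vector sham. In PRODH TAC the fibroblast sum was 0.311 times that in vector TAC, and the mitotic sum was 1.33 times. Lists within the mitotic sum were uneven. The ratio was 1.51 in the proliferation markers, 1.50 in kinetochore, spindle and cytokinesis genes and 1.08 in mitotic kinases and checkpoint genes. The second list includes Cenpf, which gave 4.87 of its 21.1 CPM in PRODH TAC and 1.72 of its 14.1 CPM in vector TAC. Without Cenpf the mitotic sum averaged 49.4 CPM in PRODH TAC and 39.2 in vector TAC. Of 10 endothelial markers, 10 were lower with PRODH after TAC, 8 rose after TAC under PRODH and 10 under vector, with sums of 561 to 651 CPM in PRODH TAC and 687 to 931 in vector TAC, against 409 to 437 in PRODH sham and 374 to 467 in vector sham. Of 13 myeloid markers, 11 were lower with PRODH after TAC, 2 rose after TAC under PRODH and 13 under vector, with sums of 201 to 247 CPM in PRODH TAC and 356 to 392 in vector TAC, against 184 to 227 in PRODH sham and 121 to 194 in vector sham. The part of these cell types in the members' changes was not tested.

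Of 8 mural markers, which mark pericytes and smooth muscle, 6 rose and none fell after TAC under PRODH, 5 rose and 2 fell under vector, and 2 were higher and 4 lower with PRODH after TAC. Their sums were 476 to 543 CPM in PRODH TAC and 498 to 562 in vector TAC, against 406 to 439.7 in PRODH sham and 418 to 436 in vector sham. Of 9 lymphoid markers 1 passed the filter, and the sums ran 0.812 to 1.89 CPM in PRODH TAC and 2.10 to 3.63 in vector TAC, against 0.788 to 1.17 in PRODH sham and 0.498 to 1.37 in vector sham; Cd3e, Cd3d, Cd8a, Ms4a1, Nkg7 and Ncr1 were among those with no count in some libraries. Of 10 cardiomyocyte markers, 1 rose and 7 fell after TAC under PRODH, 9 fell under vector, and 5 were higher and 1 lower with PRODH after TAC, with sums of 37698 to 41897 CPM in PRODH TAC and 34952 to 36518 in vector TAC, against 48028 to 52852 in PRODH sham and 49136 to 53706 in vector sham.

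**Figure D4:**
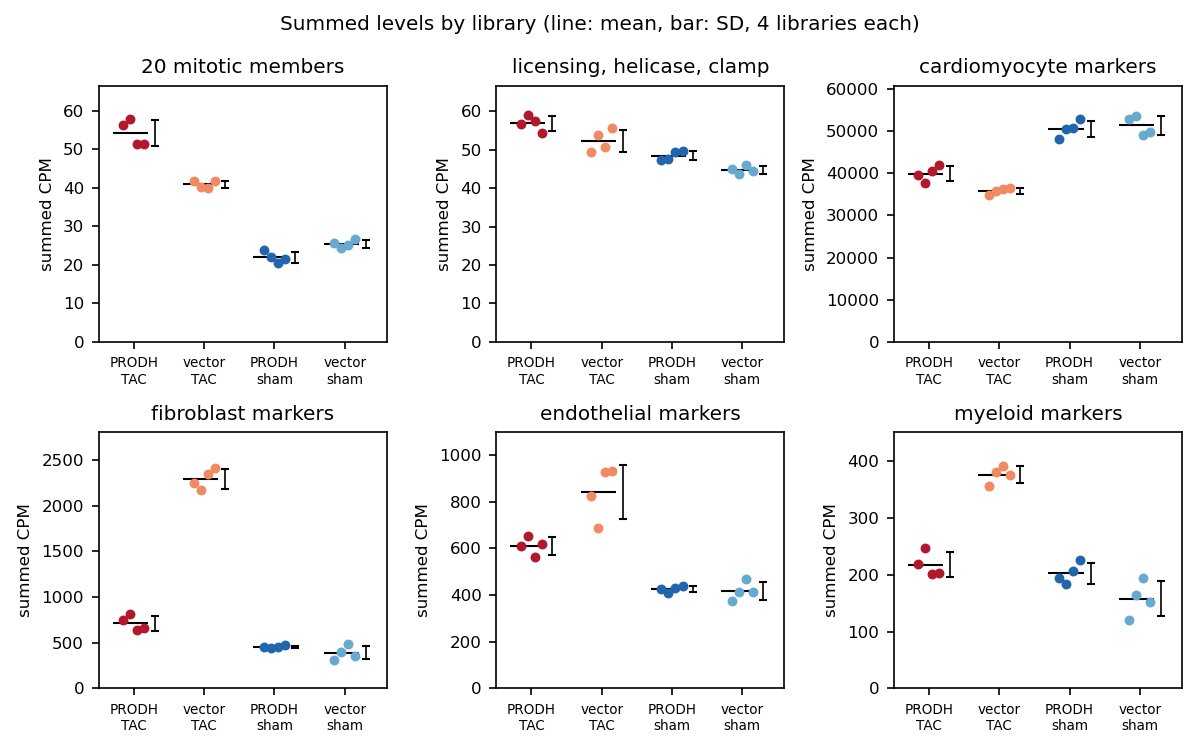
Summed normalised CPM in each of the 16 libraries for the 20 mitotic members, the 12 licensing, helicase and clamp members and 4 lists of cell type markers, with the mean as a line and the SD as a bar. The mitotic sum is highest in PRODH TAC, while the fibroblast, endothelial and myeloid sums are highest in vector TAC.

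Other genes of the pathway were counted in 7 lists of 130 genes, of which 123 were tested, and these counts stand beside the called shares of all genes given above. Of the 123, 50 were higher and 12 lower after TAC under PRODH, 45 higher and 15 lower under vector, and 24 higher and 7 lower with PRODH after TAC. Spindle and cytokinesis genes had 14 of 15 higher under PRODH and 12 of 15 under vector, none lower in either, and 3 higher with PRODH after TAC. Their sum was 23.0 ± 1.78 CPM in PRODH TAC and 18.0 ± 0.626 in vector TAC, against 7.62 ± 0.428 in PRODH sham and 7.98 ± 1.44 in vector sham. For the genes named next, log2 changes ± SE stand in brackets. Racgap1, a regulator of cytokinesis, was higher after TAC under PRODH (1.63 ± 0.21) and after TAC under vector (1.65 ± 0.21) and was not called with PRODH after TAC (0.07 ± 0.17). Knstrn, a spindle protein, was higher after TAC under PRODH (1.99 ± 0.33) and after TAC under vector (1.83 ± 0.34) and was not called with PRODH after TAC (0.08 ± 0.26). Cep55, which acts in the final cut between daughter cells, was higher after TAC under PRODH (1.89 ± 0.38) and with PRODH after TAC (1.10 ± 0.32) and was not called after TAC under vector (0.35 ± 0.40). Aspm, a spindle pole protein, was higher after TAC under PRODH (1.18 ± 0.28) and with PRODH after TAC (0.70 ± 0.26) and was not called after TAC under vector (0.65 ± 0.31). Of 18 kinetochore, condensin and passenger genes, 13 were higher and 1 lower after TAC under PRODH, 8 higher and 1 lower under vector, and 5 higher and 2 lower with PRODH after TAC. Nuf2, of the NDC80 kinetochore complex, was higher after TAC under PRODH (2.23 ± 0.32) and after TAC under vector (1.97 ± 0.32) and was not called with PRODH after TAC (0.07 ± 0.24). Spc25, of the same complex, was higher after TAC under PRODH (1.59 ± 0.34) and after TAC under vector (1.71 ± 0.33) and was not called with PRODH after TAC (-0.22 ± 0.27). Spc24, a further subunit of it, was higher with PRODH after TAC (0.97 ± 0.20), was lower after TAC under vector (-0.79 ± 0.22) and was not called after TAC under PRODH (-0.18 ± 0.19). Ncapg, a condensin subunit, was higher after TAC under PRODH (2.50 ± 0.37) and with PRODH after TAC (1.08 ± 0.29) and was not called after TAC under vector (0.61 ± 0.37).

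Replication genes outside the members moved both ways. Of 37 origin and fork genes, 9 were higher and 4 lower after TAC under PRODH, 7 higher and 7 lower under vector, and 8 higher and none lower with PRODH after TAC. Gmnn, geminin, which blocks licensing, was higher with PRODH after TAC (0.56 ± 0.10), was lower after TAC under vector (-0.73 ± 0.10) and was not called after TAC under PRODH (-0.23 ± 0.09). Timeless, a fork protection protein, was higher after TAC under PRODH (0.73 ± 0.11), after TAC under vector (0.83 ± 0.12) and with PRODH after TAC (0.33 ± 0.10). Rpa3, which binds single-stranded DNA, was higher with PRODH after TAC (0.55 ± 0.13), was lower after TAC under vector (-0.58 ± 0.13) and was not called after TAC under PRODH (0.04 ± 0.12). Of 8 further nucleotide supply genes, 4 were higher and 1 lower under PRODH, 2 higher and 2 lower under vector, and 4 higher and 1 lower with PRODH after TAC. Samhd1, a dNTP hydrolase, was higher after TAC under PRODH (0.47 ± 0.07), after TAC under vector (0.49 ± 0.08) and with PRODH after TAC (0.43 ± 0.07). Dut, a dUTPase, was lower after TAC under PRODH (-0.54 ± 0.11) and after TAC under vector (-0.66 ± 0.12) and was not called with PRODH after TAC (0.18 ± 0.12). Rrm2b, the p53-induced reductase subunit, was higher with PRODH after TAC (0.63 ± 0.10), was lower after TAC under vector (-0.33 ± 0.11) and was not called after TAC under PRODH (0.21 ± 0.10). Among 8 tested CDK inhibitors and pocket proteins, 3 were higher and 1 lower under PRODH, 4 higher and 1 lower under vector, and 2 higher and 2 lower with PRODH after TAC. Cdkn1a, the CDK inhibitor p21, was higher after TAC under PRODH (0.72 ± 0.09) and after TAC under vector (0.92 ± 0.08) and was lower with PRODH after TAC (-1.53 ± 0.08). In the sham comparison Cdkn1a was also lower with PRODH, at -1.34 (log2, adjusted p = 1.19e-11). Cdkn1c, the CDK inhibitor p57, was higher after TAC under vector (0.93 ± 0.12), was lower with PRODH after TAC (-0.38 ± 0.11) and was not called after TAC under PRODH (0.04 ± 0.11). In the sham comparison Cdkn1c was higher with PRODH, at 0.51 ± 0.12 (adjusted p = 0.00812), and its interaction was -0.89 ± 0.16 (adjusted p = 0.000120).

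Of 14 E2F and DREAM genes, 4 were higher and 2 lower after TAC under each virus, and 1 was higher with PRODH after TAC. E2f6, a repressor E2F, was lower after TAC under PRODH (-0.20 ± 0.07) and after TAC under vector (-0.32 ± 0.07) and was not called with PRODH after TAC (0.05 ± 0.07). E2f7, an atypical repressor E2F, was higher after TAC under PRODH (1.45 ± 0.29) and after TAC under vector (1.23 ± 0.30) and was not called with PRODH after TAC (0.13 ± 0.25). Lin9, of the MuvB complex, was higher with PRODH after TAC (0.59 ± 0.22) and was not called after TAC under PRODH (0.45 ± 0.22) and after TAC under vector (-0.06 ± 0.24). Lin37, of the same complex, was not called after TAC under PRODH (-0.13 ± 0.17), after TAC under vector (0.29 ± 0.17) and with PRODH after TAC (-0.36 ± 0.16). Of 23 CDK activation and ubiquitin ligase genes, 3 were higher and 3 lower under PRODH, 8 higher and 2 lower under vector, and 1 higher and 2 lower with PRODH after TAC. Wee1, which holds CDK1 inactive, was higher after TAC under vector (1.02 ± 0.14) and was not called after TAC under PRODH (-0.03 ± 0.12) and with PRODH after TAC (0.04 ± 0.12). It was already higher with PRODH in the sham groups, at 8.004 CPM in PRODH sham and 3.78 CPM in vector sham (1.09 ± 0.14, adjusted p = 2.33e-06), and its interaction was -1.05 ± 0.18 (adjusted p = 7.52e-05). Anapc2, of the anaphase-promoting complex, was higher after TAC under vector (0.52 ± 0.10), was lower with PRODH after TAC (-0.44 ± 0.09) and was not called after TAC under PRODH (-0.04 ± 0.10). Anapc11, of the same complex, was lower after TAC under PRODH (-0.61 ± 0.10) and with PRODH after TAC (-0.41 ± 0.10) and was not called after TAC under vector (-0.21 ± 0.10). Between PRODH sham and vector sham 4 of the 123 were higher and 2 lower, and the interaction was called higher in 12 and lower in 6. Among the genes named above other than Cdkn1a, Cdkn1c and Wee1, the sham difference was called in Samhd1 (0.45 ± 0.08) and Timeless (0.44 ± 0.12), both higher with PRODH. The interaction was called higher in Gmnn (0.50 ± 0.14), Rpa3 (0.61 ± 0.18), Rrm2b (0.55 ± 0.15), Ncapg (1.88 ± 0.54) and Cep55 (1.54 ± 0.57). It was called lower in Anapc2 (-0.56 ± 0.13) and Anapc11 (-0.40 ± 0.14). Cdkn2a, Cdkn2b, Myb, Orc1, Ttk, Kif14 and Cdc25c did not pass the filter.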

How the data were processed

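Per the labels' protocols, RNA of isolated cardiomyocytes was extracted with TRIzol, freed of DNA with DNase I and built into libraries with a SMARTER mRNA-Seq kit. The values the authors deposited are estimated counts of reads per gene in each library (expected_counts), not always whole: 9538 of 57010 gene models (16.73%) hold a fraction, so reads of similar sequences were divided. The deposited gene lengths gave levels per kilobase, and 4 deposited group means were not used. For the counts, the aligner, counting tool, annotation and build were not given in the sources used here. Strand use in counting is not given either, so reads of overlapping antisense genes cannot be told apart.

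Rounded counts entered edgeR 4.0.16 (R 4.3.3, limma 3.58.1, the data.table package, version 1.17.8). The filterByExpr rule selected genes (minimum count 10 and total 15), libraries were scaled by TMM, and a robust quasi-likelihood model of the 4 groups was fitted to all 16 libraries without a block. Adjustment over the 14066 genes tested followed Benjamini and Hochberg, with a threshold of 0.05, for 4 comparisons of groups and their interaction. The prior count was 0.125. SE is that of a log2 fold change, and SD that of normalised CPM over 4 libraries. The procedure was tested on simulated data in which few genes changed. Far more genes were called after TAC here, so that test cannot speak to the scaling of these libraries. No libraries of a group held the same counts, with a chi-square per gene of 2.87 to 30.7.

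The members and lists were chosen with earlier results of these data known. Values in every library are given for up to 3 members of each role with the smallest p in TAC against sham under vector, and for the D-type cyclins, Mki67, Top2a, Cdk1 and E2f1. In each list of other pathway genes, those with the 2 smallest p in that comparison and in PRODH against vector after TAC were named. Alternatives were scaling by library size, leaving out mitochondrial genes, no low-count filter, a replicate block, the groups compared alone, DESeq2 1.42.0, and each library left out. Leaving out vector TAC libraries 3 and 4 together was chosen after seeing the data. Promoter windows are those of RefSeq on GRCm38.p6, matched by symbol.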

Additional observations from a re-analysis of the deposited data

Results flagged for a closer look

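The TAC effect differed between the viruses in 7 members, by the interaction term of the edgeR fit over all genes, always with the larger signed value under PRODH (log2 ± SE, n = 4 per group). For Cenpf this means a smaller fall under PRODH, and for Ccne2 a rise under PRODH and a fall under vector. The difference was 1.20 ± 0.27 in Mki67, 1.15 ± 0.26 in Top2a, 1.27 ± 0.25 in Ccne2, 1.01 ± 0.36 in Cdk1, 0.93 ± 0.31 in Bub1b, 1.62 ± 0.24 in Cenpf and 1.02 ± 0.35 in Tpx2. Most of the value in Cdk1, Top2a and Tpx2 lies in the sham groups, where PRODH against vector was -0.93, -0.72 and -0.60 without a call. A smaller part does in Mki67 and Bub1b, at -0.44 and -0.40, also without a call. The interactions of Cdk1, Tpx2 and Bub1b were lost when single libraries named above were left out. Among all tested genes the interaction was called higher in 10.9% and lower in 15.8%, against 15.2% and 0% of the members.

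In 8 of 184 groups of 4 libraries 1 library lay far from the others, and chance alone marks about 1 group in 20. Mki67 was 2.74 CPM in PRODH sham 2, against 1.45 to 1.58 in the others of its group. Ccnd3 was 26.4 CPM in PRODH TAC 4, against 21.3 to 22.0. Ccnb1 was 0.920 CPM in PRODH sham 4, against 0.467 to 0.516. Cdk4 was 23.7 CPM in vector sham 2, against 19.3 to 19.8. Cdt1 was 0.661 CPM in PRODH TAC 2, against 0.894 to 0.925. Pcna was 21.2 CPM in PRODH sham 3, against 20.3 to 20.4. Rrm2 was 2.52 CPM in PRODH TAC 3, against 2.35 to 2.37. Birc5 was 0.263 CPM in PRODH sham 4, against 0.498 to 0.525.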

How the results depend on the processing

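The counts of members called higher after TAC stayed within 1.5 times under every alternative run: 28 to 43 under PRODH (29 in the fit reported) and 23 to 40 under vector (32 in the fit reported). With scaling by library size alone the median log2 change of all genes was 0.40 under PRODH and 0.37 under vector, against 0.02 in each. With it 96.2% of all called genes were higher after TAC under PRODH (49.2% in the fit reported) and 86.2% under vector (53.6%), and 8186 genes were called under PRODH, against 4925. Under that scaling no member was lower under PRODH (1 in the fit reported) and 1 was lower under vector (3). It also turned Cdk4 to 0.25 and 0.29, Pcna to 0.28 and 0.32 under PRODH and vector, and Mcm7 to 0.34 under PRODH. For PRODH against vector after TAC, the 2 members called lower became 0 by library size alone, by DESeq2 and without vector TAC libraries 3 and 4, and 1 without mitochondrial genes or with the groups compared alone. DESeq2 called 6 members higher there and so did the fit without those 2 libraries, against 9. In sham, 1 member was called lower without the low-count filter and 1 with the replicate block, against 0. In the interaction DESeq2 called 1 lower, against 0. The cause was not tested.

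Leaving out each library in turn gave 28 to 31 members higher and 0 to 1 lower after TAC under PRODH, 28 to 32 higher and 2 to 3 lower under vector, 5 to 11 higher and 0 to 2 lower for PRODH against vector after TAC, 1 higher and 0 to 1 lower in sham, and 5 to 9 higher and 0 lower in the interaction. The interactions of Mki67, Top2a, Ccne2 and Cenpf kept their call under every alternative run. Replicate numbers did not pair libraries: deviations of same-numbered libraries correlated at -0.129 to 0.168 over 24 pairs, and 5 of 16 libraries were closest to their own number. With a replicate block, 29 members were higher and 1 lower under PRODH, 32 higher and 2 lower under vector, 9 higher and 2 lower for PRODH against vector after TAC, and 7 higher in the interaction. The block changed the call of 2 member results: Cdc45 under vector was -0.51 and not called (adjusted p = 0.0533), and Top2a in sham was -0.72 and called (adjusted p = 0.0495). Members under 1 CPM rest on few reads, so differences in them may not be detectable at this depth.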
